A study of Rattus norvegicus with 6 samples.

Results

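Genes of smooth muscle and mural cells were followed in transplanted rat hearts from young and aged donors. The genes, fixed by symbol, were read from the deposited count table, 10 of its 22250 genes, and all 10 passed the filter on low counts. They were Acta2, Tagln, Myh11, Cnn1, Mylk and Lmod1 of the contractile apparatus, and the cell surface proteins Pdgfra, Pdgfrb, Cspg4 and Notch3. The hearts came from male Sprague-Dawley rats labelled WT in genotype, 3 young donors (10 weeks) and 3 aged donors (1 year). All 6 hearts were stored cold in UW solution, a preservation fluid, and transplanted heterotopically, as a second heart, into young recipients. Left ventricular myocardium was taken on postoperative day 1, so no heart that had not been transplanted entered the comparison, and effects of donor age before and after transplantation cannot be told apart. Hearts are named here by group and by the number in their titles: young hearts 3, 13 and 15, and aged hearts 3, 4 and 7.

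Mural cells wrap blood vessels. Smooth muscle cells surround arteries and constrict when myosin light chain kinase switches on smooth muscle myosin, which pulls on alpha smooth muscle actin, while pericytes sit on capillaries and are recruited and maintained by PDGF-BB from endothelial cells acting on the receptor PDGFRB, and by Notch signals received through NOTCH3. The contractile genes are driven by serum response factor bound to CArG boxes together with its coactivator myocardin, and their loss is the classical sign of smooth muscle cells leaving the contractile state.

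Promoter sequence was in hand for 6 of the 10 genes, as the 250 bases before the transcription start in RefSeq on build GRCr8. Of these, 3 are shown: Acta2, the member with the highest level per length, Mylk, the 1 member past the limits of the comparison, and Notch3, the 1 member whose groups did not overlap. Capitals mark near matches to a CArG box in Acta2, which begin with CC, end with GG and carry 1 G or C among the 6 bases between, and GC boxes (GGGCGG on either strand, overlapping matches counted) in Notch3. The windows are chr1:241172504-241172753 on the minus strand, chr11:79498575-79498824 on the minus strand and chr7:11834586-11834835 on the minus strand.
Acta2: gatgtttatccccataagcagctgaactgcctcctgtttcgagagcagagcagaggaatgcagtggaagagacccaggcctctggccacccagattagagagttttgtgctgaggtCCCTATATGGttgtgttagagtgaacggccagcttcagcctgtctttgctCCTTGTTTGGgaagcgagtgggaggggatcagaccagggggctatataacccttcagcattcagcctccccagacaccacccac
Mylk: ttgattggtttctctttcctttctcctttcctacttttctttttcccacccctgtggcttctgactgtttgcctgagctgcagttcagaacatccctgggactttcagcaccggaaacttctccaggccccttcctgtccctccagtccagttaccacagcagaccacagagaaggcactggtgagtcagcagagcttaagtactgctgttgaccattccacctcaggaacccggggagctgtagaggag
Notch3: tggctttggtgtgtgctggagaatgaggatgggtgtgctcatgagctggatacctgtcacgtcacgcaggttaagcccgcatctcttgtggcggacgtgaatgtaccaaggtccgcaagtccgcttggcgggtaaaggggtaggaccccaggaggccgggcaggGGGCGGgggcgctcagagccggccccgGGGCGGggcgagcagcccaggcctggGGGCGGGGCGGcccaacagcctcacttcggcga

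The Acta2 window held 2 near matches, CCCTATATGG beginning 134 bases and CCTTGTTTGG beginning 84 bases before the start, and neither Mylk, Cnn1, Pdgfra, Cspg4 nor Notch3 held a match in its window. Among 33469 RefSeq promoters of this length, 8.08% held an exact or near match and 0.693% held at least 2. GC boxes were found 4 times in Notch3 and 2 times in Cspg4, and 30.5% of all promoters held at least 1. A match describes these letters and was not tested as a binding site. Each gene had 1 window here, and which start was used in these hearts was not tested.

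Read totals ran from 21457509 to 24560869 per heart, and the members were counted between 58 and 13096 times in a heart. Levels are given as CPM (reads per 1e6 reads of the library) on library sizes scaled by TMM, whose factors ran from 0.733 to 1.24. Young heart 15 stood apart from the other young hearts: its 13 mitochondrial genes took 11.9% of reads against 21.7% in each of young hearts 3 and 13 and 6.56% to 10.3% in the aged hearts. Several marker lists of other cells differed between donor groups, and also between hearts of the same group. In these lists, 0 markers were at 0 in every heart. Of 11 cardiomyocyte markers, led by Myh6, 4 were lower past the limits given below. The sum of the 11 was 100401, 110469 and 13724 CPM in young hearts 3, 13 and 15. In aged hearts 3, 4 and 7 it was 612, 8855 and 8122 CPM, so aged heart 3 stood apart from the other aged hearts in this sum. Young heart 15 lay nearer to aged hearts 4 and 7 than to young hearts 3 and 13. Of 9 neutrophil markers tested, led by Csf3r, 8 were higher. The neutrophil sum was 30.1, 31.3 and 205 CPM in young hearts 3, 13 and 15 and 452 to 1614 CPM in aged hearts. Of 10 macrophage markers, led by Lyz2, 5 were higher. The macrophage sum was 400, 369 and 2352 CPM in young hearts 3, 13 and 15 and 3685 to 7093 CPM in aged hearts. Young heart 15 thus lay between the other young hearts and the aged hearts in both sums. In these whole-tissue samples, fewer cells of a type and less RNA per cell cannot be told apart, and the part of these shifts in the results that follow was not tested.

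For most members the difference between donor groups lay within the spread between hearts. The study's limits were a fold change outside 0.67 to 1.5 and an unadjusted p-value below 0.05, and by edgeR's quasi-likelihood test with these limits Mylk was lower in aged donor hearts, 0 members were higher and 9 members did not meet both limits. Past the limits means here that a gene met both; Myh11 and Pdgfra met the limit on fold change alone. Over all 13784 genes tested, 13.2% were past the limits as higher and 19.0% as lower. Counts in the gene lists below are to be read beside these shares. Notch3 alone had every aged heart above every young heart, 0 members had every aged heart below, and the groups of the other 9 members overlapped, whereas 21.0% of all genes tested lay wholly above and 20.6% wholly below. The median log2 fold change, aged over young, was 0.062 for the 6 contractile genes and 0.37 for the 4 cell surface genes. It was 0.016 for all genes tested. With Benjamini-Hochberg adjustment over all genes, edgeR gave an adjusted p-value under 0.05 to 0 members and to 0% of all genes tested, against 1 member and 4731 genes at an unadjusted p-value under 0.05. DESeq2 gave one to 0 members and 3592 genes, and limma-voom with quality weights to 3 members, Myh11, Mylk and Pdgfra, and 8416 genes.

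**Figure D1:**
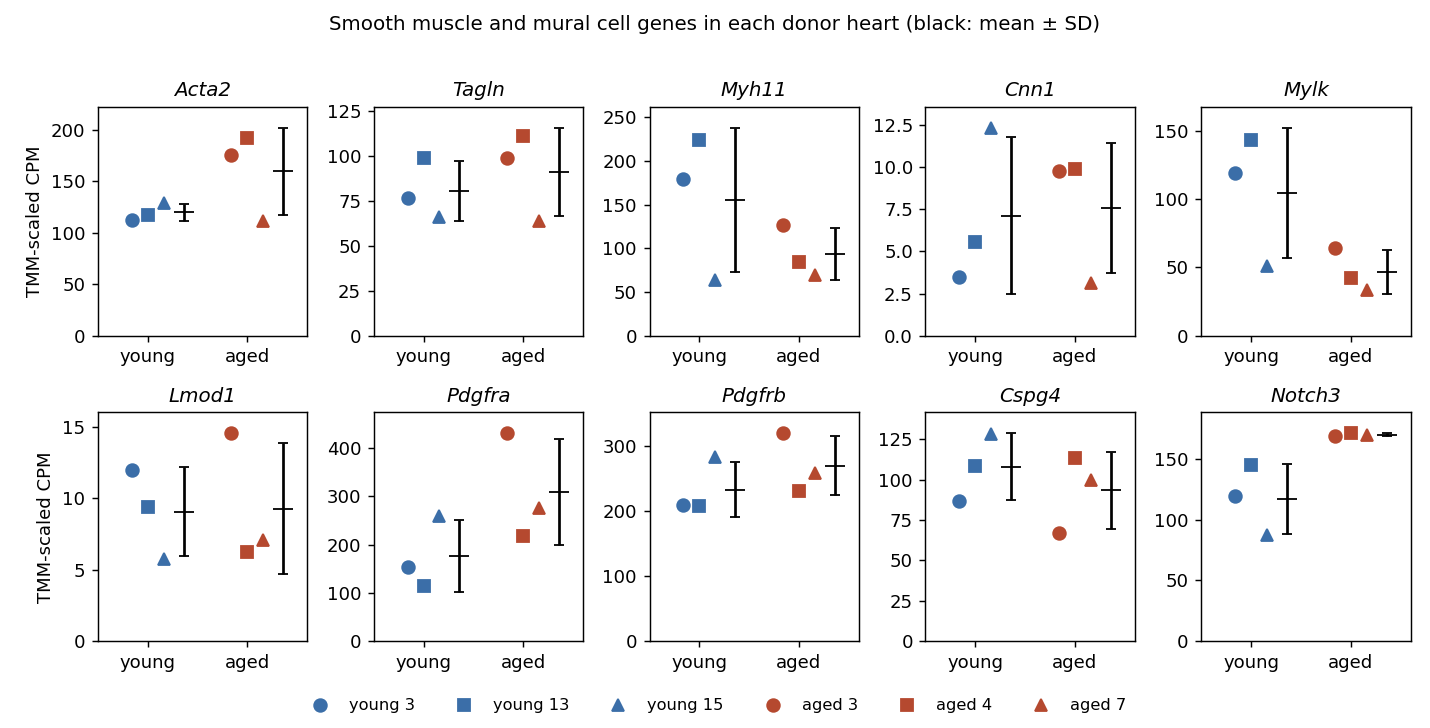
TMM-scaled CPM (linear axis from 0, 1 panel per gene) of the 10 genes in 3 young (blue) and 3 aged (red) donor hearts; each symbol is 1 heart and black marks give the mean ± SD. The aged hearts lie above the young hearts in Notch3 only, and young heart 15 (blue triangle) is closer to the aged hearts than to the other young hearts in Myh11 and Mylk.

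Per kilobase of gene length, the scale on which genes can be ranked, Acta2 was the highest member in both groups, at 85.9 ± 6.12 CPM per kilobase in young and 114.6 ± 30.5 in aged hearts (SD, n = 3). Tagln followed at 64.3 ± 13.3 and 72.9 ± 19.5 CPM per kilobase. In young hearts Acta2 stood above Tagln and Tagln above Pdgfrb in every heart, whereas from Pdgfrb downward (Pdgfra, Myh11, Notch3, Cspg4, Mylk, Cnn1, Lmod1) each gene's range overlapped that of its neighbour. In aged hearts the order was Acta2, Tagln, Pdgfrb, Pdgfra, Notch3, Myh11, Cspg4, Mylk, Cnn1 and Lmod1. Here gaps without overlap lay between Pdgfra and Notch3, between Notch3 and Myh11, and between Cspg4 and Mylk, and all other neighbours overlapped. Lmod1 was last in both groups, at 2.01 ± 0.69 CPM per kilobase in young and 2.06 ± 1.02 in aged hearts. All 6 contractile genes were thus detected in every heart.

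Acta2 encodes alpha smooth muscle actin, the thin filament actin of vascular smooth muscle and of activated fibroblasts (chromosome 1, 252537615 to 252550394, minus strand, Rnor_6.0, as are all gene positions given here). It was measured at 112, 117 and 129 CPM in young hearts 3, 13 and 15 and at 176, 191 and 111 CPM in aged hearts 3, 4 and 7. Aged hearts 3 and 4 were above every young heart and aged heart 7 was the lowest of all 6. The log2 fold change was 0.42 (SE 0.25, edgeR adjusted p = 0.26; exact permutation test, two-sided, p = 0.4, where 0.1 is the smallest p that 3 against 3 hearts allow). Leaving out aged heart 7 put Acta2 past the limits as higher, at 0.63 with an unadjusted edgeR p of 0.0341. Actins are close in sequence, and reads shared among them could be split. The cardiac and skeletal alpha actins, Actc1 and Acta1, were lower past the limits at log2 fold changes of -4.70 and -3.43, and cytoplasmic gamma actin, Actg1, was higher at 1.62, while Actg2, the gamma actin of smooth muscle, was at -0.16 and did not meet both limits.

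Tagln, or SM22 alpha, an actin-binding protein of smooth muscle (chromosome 8, 50222896 to 50231357, minus strand), was measured at 76.6, 99.0 and 66.3 CPM in young hearts and 99.0, 111 and 64.0 CPM in aged hearts. The groups overlapped fully, with the lowest value of all in aged heart 7, and the log2 fold change was 0.18 (SE 0.27, edgeR adjusted p = 0.65). Tagln followed Acta2 most closely among the contractile genes: after each gene was centred on its mean over 6 hearts, their log2 CPM values differed by 0.23 (root mean square). The annotated bodies of Tagln and Sidt2 share 1019 bases on the same strand, so reads there are uncertain, and Sidt2 had a log2 fold change of 0.24.

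Myh11, the heavy chain of smooth muscle myosin and the most restricted marker of the lineage (chromosome 10, 764421 to 859184, plus strand), was measured at 179, 224 and 63.9 CPM in young hearts and 126, 84.5 and 69.1 CPM in aged hearts. Young hearts 3 and 13 were the highest and young heart 15 the lowest of all 6, at 0.317 times the mean of the other 2 young hearts. The log2 fold change of -0.74 (SE 0.49, edgeR adjusted p = 0.30; exact permutation p = 0.4) therefore lay within the spread. Without young heart 15 it was -1.07 and past the limits, with an edgeR adjusted p of 0.0256.

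Mylk, the myosin light chain kinase that starts contraction (chromosome 11, 69013050 to 69223158, minus strand), was measured at 119, 143 and 51.0 CPM in young hearts and 64.2, 42.1 and 33.5 CPM in aged hearts. It shared the order of Myh11 at the top, young heart 13 before young heart 3 before aged heart 3, and young heart 15 lay inside the aged range. Its mean was 105 ± 47.9 CPM in young and 46.6 ± 15.8 CPM in aged hearts (SD, n = 3), a log2 fold change of -1.16 (SE 0.44, unadjusted p = 0.035, edgeR adjusted p = 0.12; exact permutation p = 0.2). The call was kept in 2 of 6 fits that left out 1 heart, those without young heart 15 (log2 fold change -1.46, edgeR adjusted p = 0.0102) and without aged heart 3, and was lost without young heart 3 or 13 or aged heart 4 or 7. Myh11 and Mylk differed by 0.26 in the root mean square of centred log2 CPM, whereas Mylk and Pdgfra, the pair least alike among members, differed by 1.27. Reads were counted per gene, so different transcripts of Mylk were not told apart.

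Cnn1, or calponin, which binds actin and restrains the myosin motor (chromosome 8, 23113048 to 23121761, plus strand), was measured at 3.51, 5.53 and 12.3 CPM in young hearts and 9.75, 9.89 and 3.14 CPM in aged hearts. Here young heart 15 was the highest of all 6, at 2.73 times the mean of the other 2 young hearts, the reverse of its place in Myh11 and Mylk. The log2 fold change was 0.087 (SE 0.61, edgeR adjusted p = 0.93), and its direction changed with the heart left out, from -0.24 to 0.78.

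Lmod1, or leiomodin, which starts actin filaments in smooth muscle (chromosome 13, 52147555 to 52190228, plus strand), was measured at 12.0, 9.41 and 5.78 CPM in young hearts and 14.5, 6.22 and 7.05 CPM in aged hearts. Aged heart 3 was highest and young heart 15 lowest, and the log2 fold change of 0.037 (SE 0.44, edgeR adjusted p = 0.96) ran from -0.44 to 0.29 with 1 heart left out.

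**Figure D2:**
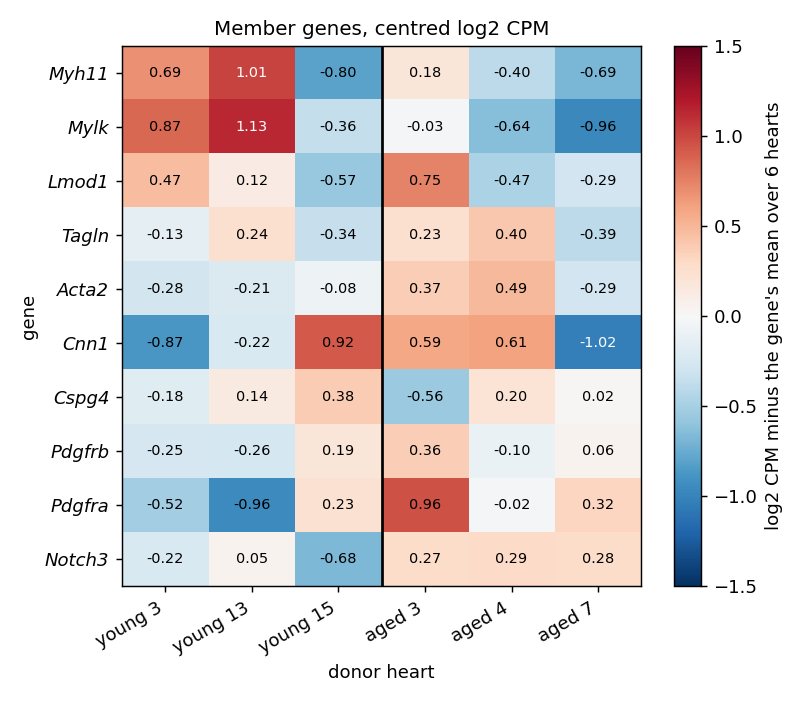
Log2 CPM of each gene minus its mean over 6 hearts (colour and printed value), with young donor hearts left and aged donor hearts right of the line. Myh11 and Mylk are high in young hearts 3 and 13 and low in young heart 15, Cnn1 is high in young heart 15, and Notch3 is between 0.27 and 0.29 in every aged heart.

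The ratio of Acta2 to Myh11 CPM, taken within each heart so that library scaling cancels, was 0.627, 0.524 and 2.02 in young hearts and 1.39, 2.26 and 1.61 in aged hearts. Young hearts 3 and 13 had the lowest ratios, and young heart 15 lay inside the aged range. The ratio is not corrected for gene length and is compared between hearts only. The mean log2 ratio was -0.20 ± 1.06 in young and 0.78 ± 0.36 in aged hearts (SD, n = 3), a difference of 0.98 (exact permutation test, two-sided, p = 0.3). The range of young hearts covered that of aged hearts but for aged heart 4.

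Among the cell surface proteins, Pdgfrb, the PDGF-BB receptor of pericytes and smooth muscle (chromosome 18, 56364620 to 56406381, plus strand), was measured at 209, 208 and 283 CPM in young hearts and 320, 232 and 259 CPM in aged hearts. Young heart 15 lay above aged hearts 4 and 7, so the groups overlapped, and the log2 fold change was 0.21 (SE 0.24, edgeR adjusted p = 0.55). Pdgfrb varied least among members, its highest heart being 1.54 times its lowest. Cspg4, or NG2, a proteoglycan used as a pericyte marker (chromosome 8, 61532465 to 61567510, plus strand), was measured at 87.0, 109 and 128 CPM in young hearts and 66.8, 113 and 99.7 CPM in aged hearts. Its highest value was in young heart 15 and its lowest in aged heart 3, the heart highest in Pdgfrb, and its log2 fold change was -0.21 (SE 0.26, edgeR adjusted p = 0.58). With library totals alone as the scale the Cspg4 value turned to 0.19, but the median of all genes also moved, to 0.46, and Cspg4 stayed below it.

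Pdgfra, the PDGF receptor of fibroblasts and other mesenchymal cells rather than of mural cells (chromosome 14, 35527927 to 35581031, minus strand), was measured at 154, 114 and 259 CPM in young hearts and 430, 218 and 276 CPM in aged hearts. Aged heart 3 was the highest, and young heart 15 again lay inside the aged range. The mean was 176 ± 74.9 CPM in young and 308 ± 109 CPM in aged hearts (SD, n = 3), a log2 fold change of 0.81 (SE 0.40, edgeR adjusted p = 0.20; exact permutation p = 0.2), the largest positive value among members. Without young heart 15 it was 1.24 and past the limits, with an edgeR adjusted p of 0.0307. Of 11 other fibroblast markers tested, 0 were higher and 7 were lower past the limits by edgeR, all 11 values were negative, with a median log2 fold change of -1.36, and their sum, led by the collagen Col3a1, was 8197 to 9965 CPM in young hearts and 2177 to 4404 CPM in aged hearts.

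The ratio of Pdgfra to Pdgfrb CPM was 0.737, 0.547 and 0.914 in young hearts and 1.34, 0.940 and 1.07 in aged hearts. Every aged heart was above every young heart, young heart 15 included, although the gap between young heart 15 and aged heart 4 was small. The mean log2 ratio was -0.48 ± 0.37 in young and 0.14 ± 0.26 in aged hearts (SD, n = 3), a difference of 0.62 (exact permutation test, two-sided, p = 0.1, the smallest possible). Against Cdh5, the cadherin of endothelial junctions, neither mural gene separated the groups. The log2 ratio of Myh11 to Cdh5 differed by -0.32 and that of Pdgfrb to Cdh5 by 0.50, each with an exact permutation p of 0.4 over the 3 aged and 3 young hearts. In all, 4 ratios were compared. Endothelial markers as a list had 1 gene higher and 1 lower past the limits and 7 that did not meet both, and summed to 1291 to 1927 CPM in young and 1139 to 1743 CPM in aged hearts.

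**Figure D3:**
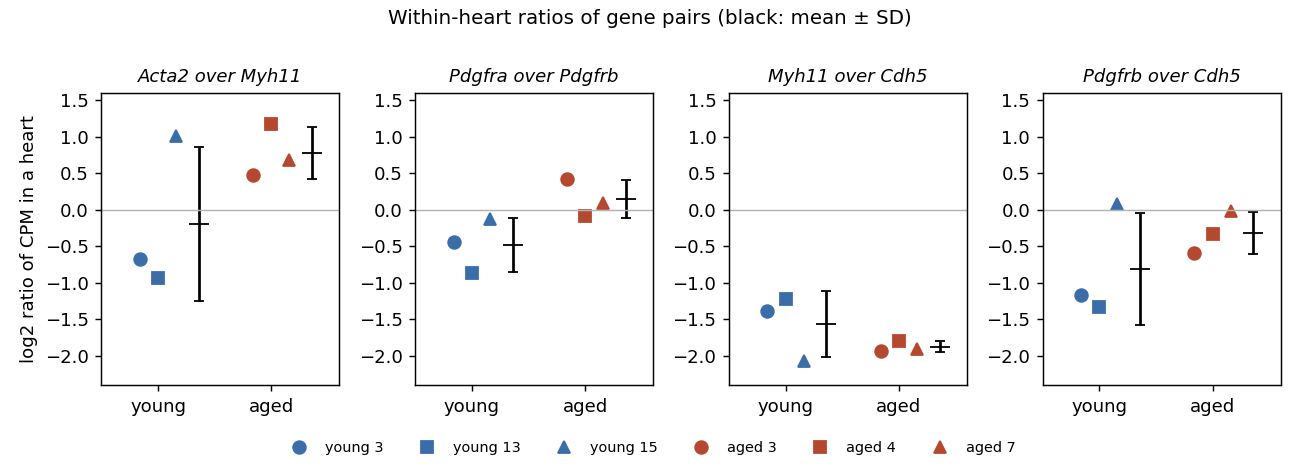
Log2 ratio of the CPM of 2 genes within each heart, 1 panel per pair, on a common axis; each symbol is 1 heart and black marks give the mean ± SD. Only Pdgfra over Pdgfrb has every aged heart (-0.089 to 0.43) above every young heart (-0.87 to -0.13), and young heart 15 lies apart from young hearts 3 and 13 in the other 3 panels.

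Notch3, the Notch receptor of arterial smooth muscle and pericytes (chromosome 7, 14138495 to 14189688, minus strand), was measured at 120, 145 and 87.4 CPM in young hearts and 169, 171 and 170 CPM in aged hearts. The aged hearts were nearly equal to each other, and all 3 were above the highest young heart. The mean was 117 ± 28.8 CPM in young and 170 ± 1.14 CPM in aged hearts (SD, n = 3), a log2 fold change of 0.53 (SE 0.23, unadjusted p = 0.0576, edgeR adjusted p = 0.16; exact permutation p = 0.1, the smallest possible). Notch3 passed the limits without young heart 13, at 0.71, and in no other fit that left out 1 heart.

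Of 13 other Notch genes tested, 2 were higher and 3 were lower past the limits, with a median log2 fold change of 0.19. Over all genes tested the shares were 13.2% higher and 19.0% lower. Rbpj, the DNA-binding partner of Notch, was higher with a log2 fold change of 1.28, from 112 ± 64.6 CPM in young to 272 ± 86.6 CPM in aged hearts (SD, n = 3). The receptor Notch2 was higher with a log2 fold change of 1.24. The 3 lower genes were target genes, while the targets Hey1 and Nrarp did not meet both limits. Heyl, a target gene of Notch in vascular smooth muscle and also on the pericyte list, was measured at 153, 137 and 59.4 CPM in young and 17.5, 38.8 and 27.5 CPM in aged hearts, with no overlap and a log2 fold change of -2.06 (SE 0.45, edgeR adjusted p = 0.0916). Hey2 was lower at -1.85 with overlapping groups, and Hes1, named after its value was seen, was lower at -0.96. The other 8 genes, among them the ligands Jag1, Jag2, Dll1 and Dll4, did not meet both limits. Of these 8, Jag1 (0.41), Dll1 (0.59) and Nrarp (0.49) had every aged heart above every young heart. Hey1 was at -1.18 with overlapping groups.

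Of the 4 PDGF ligands, Pdgfd, a ligand of PDGFRB, was lower past the limits at 8.29 ± 1.14 CPM in young and 3.92 ± 1.00 CPM in aged hearts (SD, n = 3), a log2 fold change of -1.08. Pdgfb, the endothelial ligand that recruits pericytes, had a log2 fold change of 0.55 and every aged heart above every young heart, from 61.9 to 76.1 CPM against 36.2 to 56.9 CPM, and met the limit on the p-value but not that on fold change. Pdgfa met neither limit, Pdgfc, at -1.06, met that on fold change alone, and the median of the 4 log2 fold changes was -0.48.

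Of 13 other pericyte genes tested, 9 were lower past the limits, 1 was higher and 3 did not meet both, with a median log2 fold change of -1.32. Those 3, named after their values were seen, were Kcnj8 at -0.48, Higd1b at -0.39 and Gja4 at 0.53, each with overlapping groups. All 9 lower genes had every aged heart below every young heart, young heart 15 included. Vtn, or vitronectin, a matrix protein made by pericytes, was measured at 60.5, 66.1 and 19.9 CPM in young and 5.58, 10.3 and 5.71 CPM in aged hearts, a log2 fold change of -2.76 (SE 0.53, edgeR adjusted p = 0.0916).

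Rgs5, a regulator of G-protein signalling that is among the most used pericyte markers and is named after its values were seen, was measured at 276, 305 and 112 CPM in young and 49.4, 57.3 and 30.5 CPM in aged hearts, a log2 fold change of -2.34 (SE 0.45). Young heart 15 was between the other young hearts and the aged hearts in Vtn and Rgs5 alike. Mcam, a surface protein that pericytes share with endothelial cells, was the 1 gene higher, at 213 ± 26.9 CPM in young and 331 ± 19.4 CPM in aged hearts (SD, n = 3), a log2 fold change of 0.64. With 1 heart left out, 7 to 9 of the 13 were lower past the limits, and 9 were so without young heart 15. With adjusted p-values, edgeR called 0 of them. Some of these genes, such as Abcc9, a subunit of the ATP-sensitive potassium channel, are also expressed by cardiomyocytes. Cardiomyocyte markers differed between donor groups and between young hearts, as given above, and the part of cardiomyocytes in these counts was not tested.

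**Figure D4:**
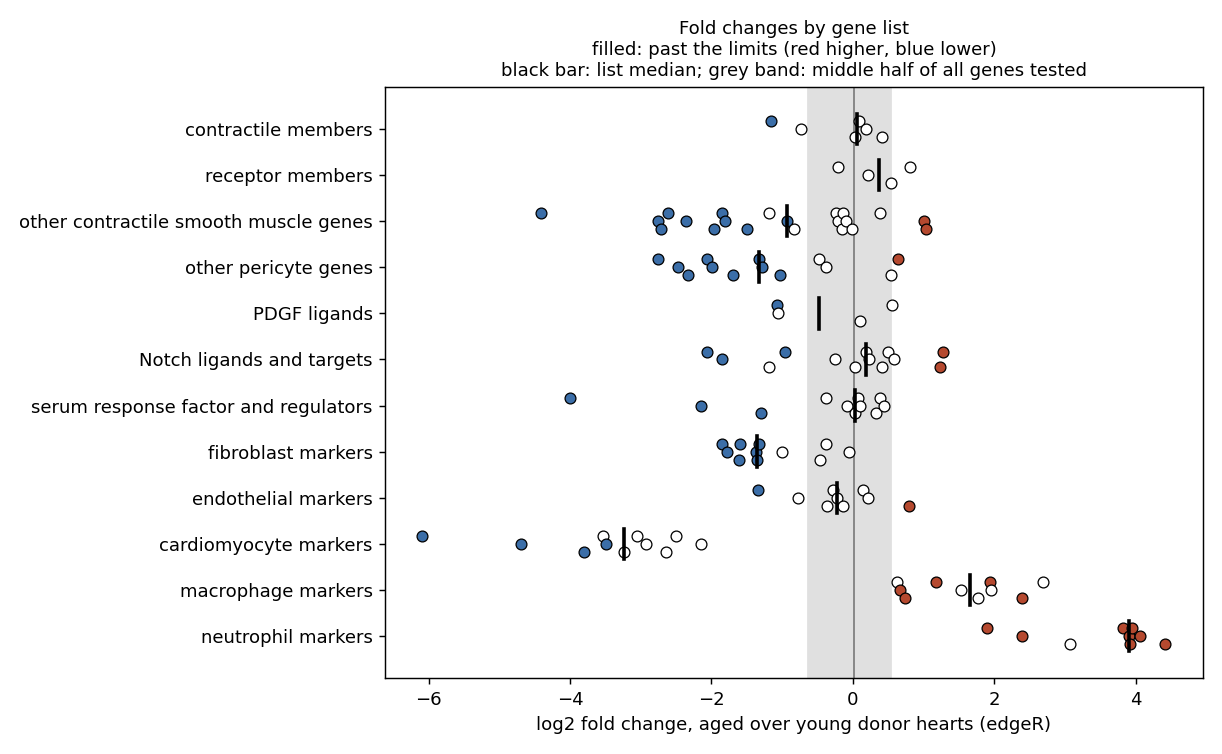
Log2 fold change, aged over young donor hearts (edgeR), of every tested gene in the member groups, 5 related lists and 5 marker lists; filled points are past the limits (red higher, blue lower), black bars are list medians and the grey band is the interquartile range of all genes tested. The contractile members and the cell surface members, labelled receptor members, lie on both sides of 0, from -1.16 in Mylk to 0.81 in Pdgfra. Their medians are 0.062 and 0.37. The other contractile and other pericyte genes lie lower, with medians of -0.94 and -1.32.

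Of 22 other contractile genes of smooth muscle, 21 were tested, with 10 lower and 2 higher past the limits, 9 that did not meet both and a median log2 fold change of -0.94. The largest fall was in Pln, or phospholamban, at -4.41, a regulator of the calcium pump that is far more abundant in cardiomyocytes. Aoc3, an amine oxidase of the smooth muscle surface, was measured at 101, 78.3 and 28.9 CPM in young and 13.6, 8.57 and 8.47 CPM in aged hearts, a log2 fold change of -2.76 (SE 0.50, edgeR adjusted p = 0.0916) with no overlap. The 2 rises were in Flna and Csrp1, an actin crosslinker and a LIM protein found in many cell types, at 1.04 and 1.01. Smtn and Myl9, 2 further contractile genes named after their values were seen, were lower at -1.85 and -2.71. The groups did not overlap in Smtn. They overlapped in Myl9, where young heart 15, at 33.9 CPM, lay inside the aged range of 19.0 to 36.3 CPM. The 9 that did not meet both limits included Cald1 at 0.38, Actg2 at -0.16, Ppp1r14a at -0.0076 and Kcnmb1 at -0.10, also named after their values were seen. With 1 heart left out, 8 to 10 genes of the list were lower past the limits. In the broader annotation of vascular smooth muscle contraction that the deposited table carries, chosen after the data were seen, 97 of 128 genes were tested and 13 were higher and 27 lower past the limits, with a median of -0.20. Over all genes tested the shares were 13.2% higher and 19.0% lower. This annotation includes members, Mylk among them, and of its 94 other genes tested 13 were higher and 26 lower.

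Of 11 regulators of the contractile genes tested, 3 were lower past the limits and 0 were higher by edgeR, while 8 did not meet both limits, with a median log2 fold change of 0.027. Srf itself, the serum response factor, was measured at 170, 206 and 128 CPM in young and 136, 195 and 145 CPM in aged hearts, a log2 fold change of -0.078 with overlapping groups. Its coactivator Myocd, or myocardin, which is shared by smooth and cardiac muscle, was measured at 46.3, 61.9 and 46.2 CPM in young and 1.64, 19.7 and 13.6 CPM in aged hearts. All aged hearts were below all young hearts, and the log2 fold change was -2.15 (SE 0.79, edgeR adjusted p = 0.12). Elk1, which competes with myocardin for serum response factor, was lower at -1.30, and Fhl2, a LIM cofactor abundant in cardiomyocytes, was lower at -4.01. Mrtfa, the myocardin-related factor that responds to actin, had a log2 fold change of 0.44 and did not meet both limits.

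The genes most like Myh11 over the 6 hearts, among 9561 genes with a mean of at least 10 CPM, were Spata13, Rem1 and Icoslg, whose centred log2 CPM differed from that of Myh11 by 0.17, 0.18 and 0.19 (root mean square over 6 hearts). Those most like Pdgfrb were Fubp1, Ankfy1 and Sp100, at 0.038, 0.056 and 0.057. Fubp1, for example, was measured at 81.2, 80.9 and 108 CPM in young and 129, 89.6 and 107 CPM in aged hearts. Its highest and lowest hearts were those of Pdgfrb, which is no separate result because it was chosen for likeness over the same hearts.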

How the data were processed

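RNA-Seq of polyadenylated RNA was measured in 6 hearts. The authors deposited raw read counts per gene, with no normalization, and FPKM values, which divide those counts by gene length and library total. Submitters' processing notes name HISAT2 2.0.5, StringTie 1.3.3b, featureCounts 1.5.0-p3, DESeq2 1.16.1, GATK 3.7 and build Rnor_6.0, with no roles; use of strand is not given in the sources used here. Levels between genes were compared per kilobase of the deposited gene length from the counts; deposited FPKM entered no test.

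The members and lists were chosen with earlier results of these data known. The count test was edgeR 4.0.16 in R 4.3.3 (filterByExpr, TMM, glmQLFit and glmQLFTest, no covariates), and 13784 of 22250 genes were tested. P-values were adjusted over all genes tested (Benjamini-Hochberg). Standard errors were derived from each log2 fold change and its F statistic, as their quotient after taking the root of F. Within-heart ratios and permutation tests used log2 CPM with a prior count of 2, and the permutation tests were exact and two-sided. Named were all 10 members, Pdgfrb and Myh11 neighbours by root mean square difference, and, in each related list, every gene past the limits or, above 4 such genes, the 2 largest rises and 2 largest falls. One item under this rule is left unreported. Marker lists are given by counts and sums. Pecam1, Col1a2 and Mkl2 had no row by that name, so Cdh5 stood in for Pecam1 in 2 ratios, chosen after the data were seen; Mrtfa was matched for Mkl1 by gene identifier. Alternatives were DESeq2 1.42.0, limma 3.58.1 voom with quality weights, other scalings, no filter and leaving out hearts. Scripts ran in Python 3.11.15 with scipy 1.17.1 and were tested on simulated data. The labels give 6 separate samples, and p-values measure the spread between these.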

Additional observations from a re-analysis of the deposited data

How the results depend on the processing

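Each group had 3 hearts, and the heart whose removal moved a member's log2 fold change most differed between members: young heart 15 for Cnn1, Pdgfra and Pdgfrb, young heart 13 for Myh11, Mylk and Notch3, aged heart 7 for Acta2 and Tagln, and aged heart 3 for Lmod1 and Cspg4. For members higher past the limits, the count of 0 became 2 with library totals alone (Acta2 and Notch3), 1 with limma-voom, 1 without young heart 15 and aged heart 3 together (an alternative added after seeing the data), and 0 to 1 with 1 heart left out. For members lower past the limits, the count of 1 became 0 with library totals alone, 2 with limma-voom, 3 without those 2 hearts (Myh11, Mylk and Lmod1), 0 with adjusted p-values and 0 to 2 with 1 heart left out. All genes past the limits numbered 4436, against 7504 with limma-voom, 7396 without those 2 hearts, 0 with adjusted p-values, and 2432 (without young heart 3) to 7214 (without young heart 15) with 1 heart left out; without young heart 13 it was 2495. With library totals alone 3147 genes were higher and 1441 lower, against 1815 and 2621. The other pericyte and other contractile genes lower past the limits, 9 and 10, became 0 and 0 with adjusted p-values and stayed within 1.5 times otherwise. Direction reversed for Tagln with limma-voom (-0.060), for Cnn1 with 1 heart left out (-0.24 to 0.78), for Lmod1 with limma-voom (-0.47), without those 2 hearts (-0.65) and with 1 heart left out (-0.44 to 0.29), and for Cspg4 with library totals alone (0.19), limma-voom (0.020) and without those 2 hearts (0.16). The within-heart log2 ratios kept their direction under the prior count of 0.5 and with each heart left out, but their sizes moved. The difference in Acta2 over Myh11 (0.98) was 0.61 without young heart 13 and 1.58 without young heart 15, that in Myh11 over Cdh5 (-0.32) was -0.15 and -0.57, and that in Pdgfrb over Cdh5 (0.50) was 0.23 and 0.94, and 0.32 without young heart 3. Pdgfra over Pdgfrb (0.62) ranged from 0.43 to 0.80. The causes were not tested. No paired analysis was possible because the groups share only the number 3, which names different hearts.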
